A study of Chlamydomonas reinhardtii with 2 samples.

Results

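The Calvin cycle genes described here are 10 nuclear genes of the green alga Chlamydomonas reinhardtii, taken by symbol from the annotation rows of both expression tables, out of 17693 reference genes and 17489 nuclear ones. They are RBCS1, RBCS2, RCA1, PGK1, GAPA1, FBA3, TRK1, RPE1, PRK1 and CP12, and each symbol matched 1 nuclear gene. Transcripts were measured by RNA sequencing in the strain CC5325 and in the strain CC125, with 1 library each. The labels call both strains wild type and name no allele or treatment for either. Both were grown in TAP, a medium that supplies acetate, with shaking at 25 °C and in light of 20 μmol photons per m2 per s. With 1 library per strain, differences have no replicate check, and no p-values are given. The series title places the libraries in a study of a modified DNA base, and the comparison its design implies is CC5325 against CC125.

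The Calvin cycle fixes CO2 in the chloroplast. Rubisco joins CO2 to ribulose bisphosphate, the product is reduced to sugar phosphates with ATP and NADPH, and the remaining enzymes regenerate the acceptor. In Chlamydomonas the large subunit of Rubisco is encoded in the plastid and the small subunit in the nucleus, as are the other enzymes of the cycle. Cells given acetate can grow on it beside photosynthesis.

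Depth was low over protein genes. Coverage times gene span put at most 108004 reads of 150 bases in reference genes of CC5325 and at most 34287 in those of CC125, and of these at most 767 in CC5325 and 387 in CC125 lay in the 10 genes. Spans include introns, so reads per gene are upper limits throughout. TPM is a length-scaled share of transcripts, and 1 TPM was reached by 209 reference genes of CC5325 and 130 of CC125. Of the 10 genes, 5 reached it in CC5325 and 6 in CC125.

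RPE1 was barely covered, and the other 9 genes ranked 488th or better by TPM among nuclear genes in CC5325 and 285th or better in CC125. All 10 were listed above 0 in CC5325, against 53.3% of reference genes there, and 9 of 10 in CC125, against 21.2%. Their TPM came to 18.0 in CC5325 and 21.1 in CC125, which was 0.730% of the TPM of nuclear reference genes in CC5325 and 1.44% in CC125. The Rubisco small subunit genes RBCS1 and RBCS2 held 54.1% of the sum of the 10 genes in CC5325 and 43.4% in CC125. By step, the 3 carboxylation genes summed to 10.01 TPM in CC5325, against 9.44 TPM in CC125. For the 4 regeneration genes the sums were 5.20 TPM in CC5325 and 5.47 TPM in CC125. On the TPM scale these sums were close between the strains, the regeneration sum joining TRK1, higher in CC5325, with PRK1, lower there. The 2 reduction genes summed to 1.86 TPM in CC5325, against 4.33 TPM in CC125. GAPA1 alone held 1.45 TPM of this in CC5325 and 4.09 TPM in CC125. Reads were at most 323 in CC5325 and 138 in CC125 for carboxylation. For reduction they were at most 92.9 in CC5325 and 89.9 in CC125, and for regeneration 328 in CC5325 and 139 in CC125.

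**Figure D1:**
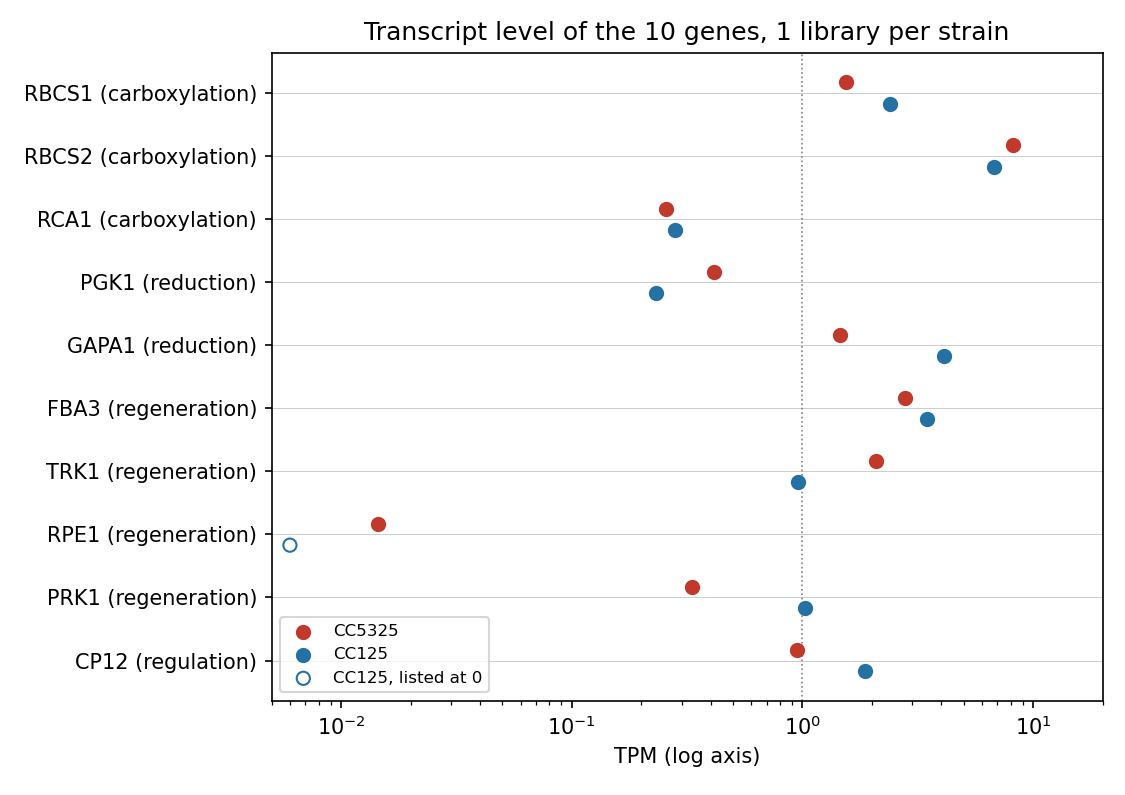
TPM on a log axis for each of the 10 genes, with its step of the cycle, in the CC5325 library and the CC125 library (1 point per library, no error bars). The dotted line marks 1 TPM, and the open circle is RPE1, listed at 0 in CC125. The small subunit gene RBCS2 is the highest point in both strains, and GAPA1 and PRK1 lie to the left in CC5325.

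The small subunit gene RBCS2 (Cre02.g120150, chromosome 2, 6182873 to 6184867, minus strand) was the most abundant of the 10 in both strains. It stood at 8.20 TPM in CC5325, against 6.76 TPM in CC125, at a mean coverage of 19.1 reads per base in CC5325 and 7.05 in CC125, from at most 254 reads in CC5325 and 93.8 in CC125. It ranked 12th among nuclear reference genes in CC5325 and 10th in CC125. The coverage ratio of CC5325 to CC125, put on the TPM scale, was 1.22, with a 95% counting interval of 0.958 to 1.56. That interval takes in equality, so a difference in RBCS2 was not detectable at this depth. RBCS2 was the only one of the 10 whose TPM departed from what its coverage gives, which was 7.49 TPM in CC5325, against 6.12 TPM in CC125.

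RBCS1 (Cre02.g120100, chromosome 2, 6177611 to 6179419, minus strand), the other small subunit gene, lies 3453 bp from RBCS2 on the same strand. The 1 annotated gene between them was listed at 0 in both libraries. RBCS1 stood at 1.55 TPM in CC5325, against 2.41 TPM in CC125, at a coverage of 3.96 in CC5325 and 2.77 in CC125, a ratio of 0.644 (0.413 to 1.06). RBCS2 coverage was 4.83 times that of RBCS1 in CC5325 and 2.54 times in CC125. Relative to RBCS2, RBCS1 was thus 0.527 times as high in CC5325 as in CC125 (interval 0.317 to 0.923). These genes are close copies and the aligner may have given reads of one to the other, which leaves their division uncertain. Their sum came to 9.75 TPM in CC5325, against 9.16 TPM in CC125, and how far it depends on that division was not tested.

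The partner of these subunits, rbcL, encodes the large subunit in the plastid. It stood at 2.17 TPM in CC5325, against 6.36 TPM in CC125, where its coverage gives 3.52 TPM. Small subunit TPM was 4.49 times rbcL TPM in CC5325 and 1.44 times in CC125, and by coverage 4.16 times in CC5325 and 2.42 times in CC125. The size of this contrast depends on which value of rbcL is taken. RCA1 (Cre04.g229300, chromosome 4, 3729303 to 3734104), for Rubisco activase, which frees blocked active sites of Rubisco, stood at 0.256 TPM in CC5325, against 0.281 TPM in CC125. Its coverage ratio was 0.910 (0.427 to 2.25), from at most 20.9 reads in CC5325 and 10.4 in CC125, and so was compatible with a difference in either direction.

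Of the reduction genes, GAPA1 was lower in CC5325. GAPA1 (Cre01.g010900, chromosome 1, 1991113 to 1993746, minus strand) encodes the chloroplast glyceraldehyde phosphate dehydrogenase, the NADPH-using step. It stood at 1.45 TPM in CC5325, against 4.09 TPM in CC125, at a coverage of 3.70 reads per base in CC5325 and 4.72 in CC125. The coverage ratio on the TPM scale was 0.354 (0.251 to 0.495), from at most 65.0 reads in CC5325 and 82.8 in CC125, and the log2 ratio of TPM + 1 was -1.06. CC125 thus had the higher coverage of GAPA1 even before any scaling, although its library held fewer reads in genes. GAPA1 ranked 143rd among nuclear genes in CC5325 and 33rd in CC125. PGK1 (Cre11.g467770, chromosome 11, 1989825 to 1993788), phosphoglycerate kinase, which precedes this step, stood at 0.414 TPM in CC5325, against 0.232 TPM in CC125. Its ratio was 1.79 (0.770 to 4.89), from at most 28.0 reads in CC5325 and 7.06 in CC125, so no direction is read from it.

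The regeneration genes went in different directions. TRK1 (Cre02.g080200, chromosome 2, 1046249 to 1051167, minus strand), transketolase, stood at 2.09 TPM in CC5325, against 0.957 TPM in CC125, at a coverage of 5.32 in CC5325 and 1.10 in CC125. Its ratio was 2.18 (1.52 to 3.23), from at most 175 reads in CC5325 and 36.2 in CC125, and it was the highest ratio of the 9 genes that have one. PRK1 (Cre12.g554800, chromosome 12, 7723295 to 7726831, minus strand), phosphoribulokinase, which makes the CO2 acceptor, stood at 0.332 TPM in CC5325, against 1.03 TPM in CC125, at a coverage of 0.848 in CC5325 and 1.18 in CC125. Its ratio was 0.323 (0.172 to 0.593), the lowest of the 9, from at most 20.0 reads in CC5325 and 27.9 in CC125. For the other regeneration genes no difference was detectable. FBA3 (Cre05.g234550, chromosome 5, 1347295 to 1350109), chloroplast fructose bisphosphate aldolase, stood at 2.77 TPM in CC5325, against 3.48 TPM in CC125, a ratio of 0.796 (0.598 to 1.08). RPE1 (Cre12.g511900, chromosome 12, 1902497 to 1905437), ribulose phosphate epimerase, was listed at 0.0145 TPM in CC5325, which is less than the bases of 1 read, and at 0 in CC125. Libraries with so few reads in genes do not resolve it.

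CP12 (Cre08.g380250, chromosome 8, 3704064 to 3705496) encodes a small regulatory protein that binds GAPDH and phosphoribulokinase in an inactive complex in the dark. It stood at 0.945 TPM in CC5325, against 1.86 TPM in CC125, at a coverage of 2.41 in CC5325 and 2.14 in CC125. Its ratio was 0.508, with an interval of 0.272 to 0.996 that reaches almost to equality, from at most 23.1 reads in CC5325 and 20.5 in CC125. PRK1, GAPA1 and CP12 were the 3 lowest ratios among the 9 genes. These 3, grouped here after their values were seen, encode the partners of that complex.

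**Figure D2:**
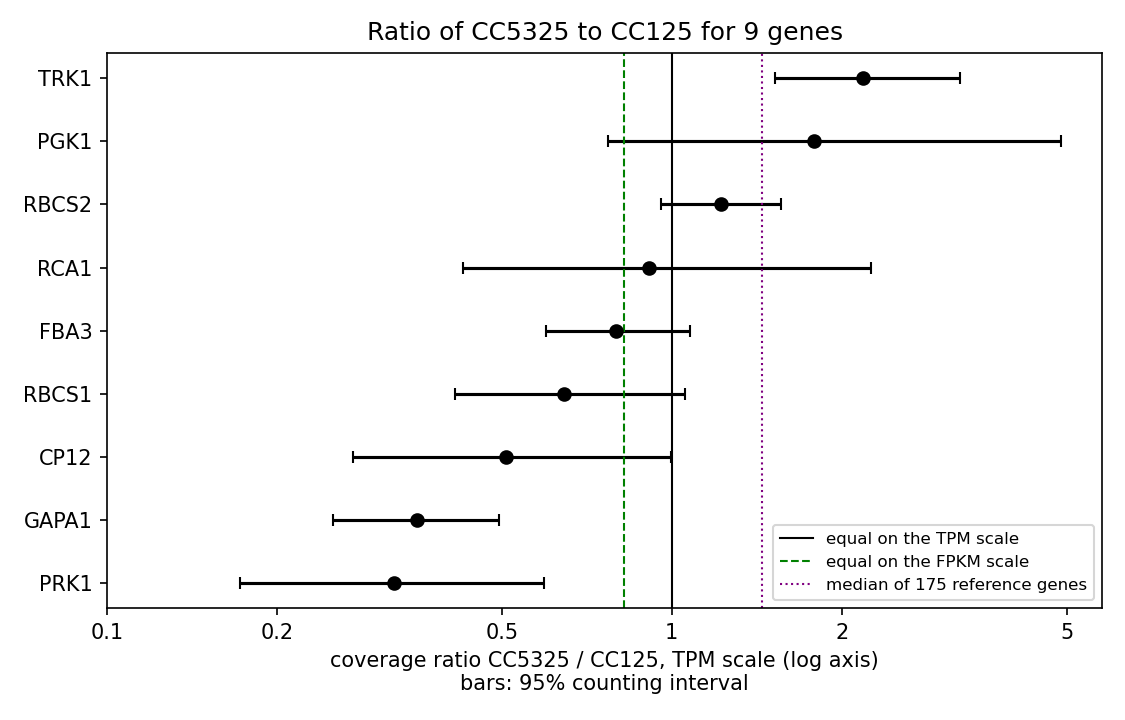
Coverage ratio of CC5325 to CC125 on the TPM scale (log axis) for the 9 genes above 0 in both libraries, with bars for the 95% counting interval. Lines mark equality on the TPM scale and on the FPKM scale, and the median ratio of 175 reference genes (1.44). GAPA1 and PRK1 lie wholly below both equality lines and TRK1 wholly above all 3 lines, while 5 of the 9 intervals take in equality on the TPM scale.

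The counting interval left out equality for 4 of the 9 genes with at least 10 reads over both libraries. TRK1 was the 1 above, where 47.7% of 1395 nuclear reference genes of that depth were above, and GAPA1, PRK1 and CP12 were the 3 below, where 3.37% were below. Among all 1395 genes the median ratio was 3.94, and 2.08% had a lower ratio than GAPA1, 1.72% a lower one than PRK1 and 4.52% a lower one than CP12. At TRK1 32.0% of genes were still lower. All 9 ratios, TRK1 included, were thus below the median of these genes. CC5325 had more reads in genes, so a minimum on summed reads can take in genes read mainly there, and this background moves with the minimum. With at least 30 reads, chosen after seeing the data, the median of 405 genes was 3.32, with 65.2% of them above equality and 7.41% below. Over the 175 genes averaging 1 TPM or more the median was 1.44, which leaves TRK1 and PGK1 above it.

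The intervals cover counting error only, with mates taken as independent and spans in place of exon lengths, and are the narrowest this depth allows. With 300 bases per counted unit, as for a read pair, GAPA1, TRK1 and PRK1 still left out equality and CP12 did not. With 600 bases GAPA1 and TRK1 did. The scale between the libraries matters too. The FPKM values, scaled to all aligned bases of a library, put every ratio 1.21 times higher than the TPM scale. On it CP12 takes in equality at 0.617 (0.331 to 1.21) and RBCS2 stands above it at 1.49 (1.16 to 1.90), while GAPA1 (0.430, 0.305 to 0.601), PRK1 (0.392, 0.209 to 0.720) and TRK1 (2.65, 1.85 to 3.93) keep their sides. On that scale 56.1% of the 1395 genes were above equality and 2.51% below. With the median of the 175 genes set to 1, RBCS1 (0.446, 0.286 to 0.731) and FBA3 (0.551, 0.414 to 0.745) join the genes below equality, and TRK1 stands at 1.51 (1.06 to 2.24). There 28.6% of the 1395 genes were above and 6.09% below.

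On the log2(TPM + 1) scale, 6 of the 10 genes averaged 1 TPM or more, namely RBCS1, RBCS2, GAPA1, FBA3, TRK1 and CP12. None of them was 2-fold higher in CC5325, where 34.9% of 175 reference genes were, and 1, GAPA1, was 2-fold lower, where 10.3% were. The higher genes include a run with neighbouring identifiers, from ZRT2 (Cre01.g000150) to Cre01.g001664, at 3.31 to 4.42 TPM in CC5325. In CC125 each of that run had at most 0.0325 TPM. Whether the run is 1 stretch of signal was not tested, and it enters the medians of the 175 genes here and above. The 6 genes had a median log2 ratio of -0.33, against 0.41 for the 175 genes. Those 175 include organelle genes. The 156 nuclear genes among them had a median of 0.60, with 60 of them 2-fold higher and 7 lower. TRK1, below 1 TPM in CC125, and CP12, below 1 TPM in CC5325, could pass this filter only in the direction they show. The remaining 4 genes, with log2 ratios of -0.61 for PRK1, 0.20 for PGK1, -0.029 for RCA1 and 0.021 for RPE1, are too close to or below 1 TPM for this scale to show their fold.

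**Figure D3:**
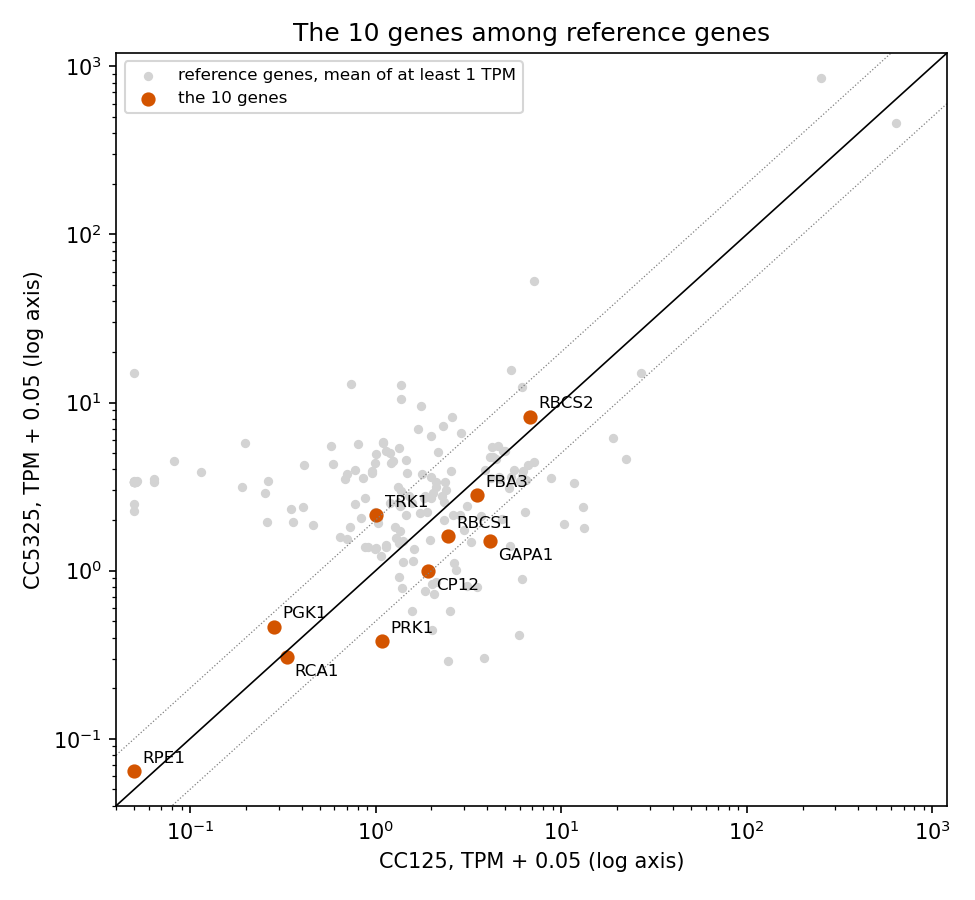
TPM in CC5325 (vertical) against TPM in CC125 (horizontal), both with 0.05 TPM added so that values listed at 0 can be drawn on log axes, for the 175 reference genes averaging 1 TPM or more (grey) and the 10 genes (orange). The solid line marks equal TPM and the dotted lines a 2-fold ratio. Most grey points lie above the line of equality, whereas GAPA1 and PRK1 lie below the lower dotted line and RBCS2 near the line of equality.

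Levels relative to RBCS2 in the same library do not depend on the scale between libraries. GAPA1 coverage was 19.4% of RBCS2 coverage in CC5325 and 66.9% in CC125, so that relative to RBCS2 it was 0.289 times as high in CC5325 (interval 0.190 to 0.442). PRK1 was at 4.43% of RBCS2 in CC5325 and 16.8% in CC125, or 0.264 times as high (0.135 to 0.514). CP12 was at 12.6% in CC5325 and 30.4% in CC125, or 0.415 times as high (0.213 to 0.860). Each of these 3 genes was thus lower against RBCS2 in CC5325 than in CC125, as was FBA3, at 37.0% in CC5325 and 56.9% in CC125, or 0.651 times as high (0.447 to 0.967). TRK1 was the other way, at 27.8% of RBCS2 in CC5325 and 15.6% in CC125, or 1.78 times as high (1.15 to 2.85). RCA1 (0.744, 0.336 to 1.92) and PGK1 (1.46, 0.605 to 4.15) did not differ beyond counting error. The division of reads between RBCS1 and RBCS2 is uncertain. With the 2 summed as the reference, GAPA1 was 0.334, PRK1 0.305, CP12 0.479, FBA3 0.751 and TRK1 2.05 times as high, without intervals. The intervals relative to RBCS2 take mates as independent and were not recomputed for read pairs. For FBA3, TRK1 and CP12 they end near 1, so a difference there is uncertain.

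**Figure D4:**
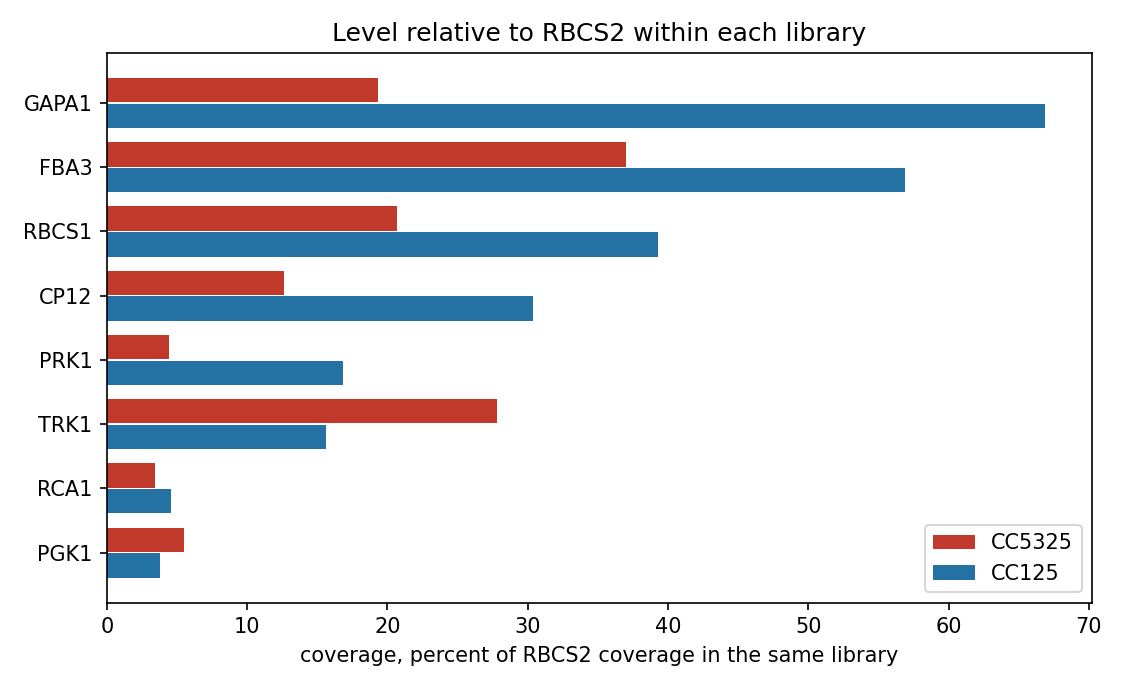
Coverage of 8 genes as a percentage of RBCS2 coverage in the same library, with CC5325 above CC125 for each gene (1 library each, no error bars). GAPA1 falls at 19.4% in CC5325 and 66.9% in CC125, and TRK1 at 27.8% in CC5325 and 15.6% in CC125.

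The order of levels also differed between the strains. In CC5325 it ran RBCS2, FBA3, TRK1, RBCS1, GAPA1, CP12, PGK1, PRK1, RCA1 and RPE1. From TRK1 down to CP12 no neighbours in that order differed beyond counting error, nor did any from PGK1 down to RCA1. In CC125 the order was RBCS2, GAPA1, FBA3, RBCS1, CP12, PRK1, TRK1, RCA1, PGK1 and RPE1. Here the neighbours from GAPA1 down to TRK1 did not differ beyond counting error, and neither did RCA1 and PGK1. RBCS2 exceeded the next gene in both, by 2.70-fold over FBA3 in CC5325 (2.18 to 3.35) and by 1.495-fold over GAPA1 in CC125 (1.10 to 2.03).

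Neighbouring genes were mostly low. Of the 38 flanking positions (the 2 nearest annotated genes on each side that do not overlap, other than RBCS1 and RBCS2 themselves), 37 were below 1 TPM in both libraries, and the remaining one, next to RBCS2, had 1.86 TPM in CC5325, against 0.975 TPM in CC125. In 3 cases another annotated gene overlaps. CGL97, on the other strand, shares 403 bp with TRK1 and had a coverage of 0.250 in CC5325 and 0 in CC125. TRXH2, on the other strand, shares 106 bp with PRK1 and had 0.0658 in CC5325 and 0 in CC125. Cre08.g800949, on the same strand, shares 224 bp with CP12 and had a coverage of 0.0172 in CC5325 and 0.436 in CC125. Whether the counting used strand is not given in the sources used here, so reads in these overlaps cannot be assigned with certainty. The neighbour of CP12 was, like CP12, higher in CC125, and its part in the CP12 value was not tested.

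The other pathway genes found by symbol were nearly all below 1 TPM. Lists of other Calvin cycle genes, Rubisco assembly factors, the thioredoxin system and photorespiration matched 54 genes. In that order, 17 of 23, 13 of 21, 10 of 17 and 14 of 21 listed symbols had a match, so the lists are incomplete. Of the 54 genes, 45 were above 0 in CC5325 and 25 in CC125, and 9 in neither. None averaged 1 TPM or more. Of the 20 with at least 10 reads, 5 had a ratio whose interval lay above equality and 1 below, where 47.7% of the 1395 genes of that depth lay above and 3.37% below. The 1 of 20 below is thus close to the share over all genes. It was SBP1, sedoheptulose bisphosphatase, a regeneration enzyme specific to the cycle. It stood at 0.505 TPM in CC5325, against 1.05 TPM in CC125, a ratio of 0.481 (0.277 to 0.851), and its interval took in equality on the FPKM scale (upper limit 1.03). On that scale 7 of the 20 lay above equality and 0 below, where 56.1% of the 1395 genes lay above and 2.51% below. The 5 above on the TPM scale were CPN60B1, PRX2, SHMT2, TAL1 and TAL2, the last 2 being transaldolases of the related pentose phosphate pathway. Each had at most 4.11 reads in CC125 (TAL2) and reached the minimum of 10 reads through CC5325. Genes with so few CC125 reads could enter above equality but not below it, so their direction is no support for a difference. TAL2 stood at 0.447 TPM in CC5325, against 0.0815 TPM in CC125, a ratio of 5.48 (2.07 to 21.5), and TAL1 at 0.577 TPM in CC5325 and listed at 0 in CC125. RPI1, ribose phosphate isomerase, stood at 0.400 TPM in CC5325, against 0.303 TPM in CC125, a ratio of 1.32 (0.368 to 5.34).

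Among the assembly factors, the chaperonin subunits that fold the large subunit of Rubisco had low values. CPN60B2 stood at 0.296 TPM in CC5325, against 0.208 TPM in CC125, and CPN20 at 0.280 TPM in CC5325, against 0.239 TPM in CC125. Their intervals took in equality, as did that of CPN60A on the TPM scale. On the FPKM scale the CPN60A interval lay above equality (1.13 to 13.0). CPN10, at 0.0823 TPM in CC5325, against 0.452 TPM in CC125, had too few reads to compare. CPN60B1, at 0.202 TPM in CC5325, against 0.0311 TPM in CC125, was the 1 factor above, at a ratio of 6.49 (1.65 to 56.6), and is named after its values were seen. The peroxiredoxin PRX2, which removes peroxide with electrons from thioredoxin, stood at 1.55 TPM in CC5325, against 0.132 TPM in CC125, a ratio of 11.7 (2.34 to 77.1). PRX1 stood at 0.670 TPM in CC5325, against 0.150 TPM in CC125, within counting error on the TPM scale. Its interval lay above equality on the FPKM scale (1.11 to 41.6). Thioredoxin f, TRXF1, which activates several Calvin cycle enzymes in the light, stood at 0.0540 TPM in CC5325, against 0.134 TPM in CC125, too few reads to compare. Of the photorespiration genes, AGT1 (0.343 TPM in CC5325, 0.225 TPM in CC125) and GCSP1 (0.137 TPM in CC5325, 0.187 TPM in CC125) lay within counting error, and SHMT2, a serine hydroxymethyltransferase, had 0.328 TPM in CC5325 and no reads listed in CC125.

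Gene groups nearest in function gave the following values. For nuclear electron carriers and the plastid ATP synthase, 11 of 14 listed symbols had a match. Of these 11 genes, 9 had at least 10 reads, with 2 intervals above equality and 2 below. Of 18 antenna genes with at least 10 reads, 16 intervals lay above and none below. Over all 1395 genes 47.7% lay above and 3.37% below. Of the carbon-concentrating list, with a match for 14 of 22 symbols, 2 genes had at least 10 reads, 1 on each side. EPYC1, which links Rubisco into the pyrenoid, lay below, at 0.524 TPM in CC5325, against 2.46 TPM in CC125. SAGA1, named after its values were seen, lay above, at 0.0547 TPM in CC5325 and listed at 0 in CC125. It met the minimum of 10 reads through CC5325 alone. So did FDX5, 1 of the 2 electron carrier genes above equality, also named after its values were seen and listed at 0 in CC125. Most of the antenna genes above equality likewise had fewer than 10 reads in CC125. As said above, such a minimum can take in genes read mainly in CC5325. The counts for these groups come from 1 library per strain, and no test of a difference between the groups was made.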

How the data were processed

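Total RNA was depleted of ribosomal RNA and sequenced as 150 base paired ends, per the labels' protocols. The submitters' processing notes name StringTie 2.2.3, HISAT2 2.2.1, FastQC 0.12.1 and Trimmomatic, with settings not given in the sources used here. Per the file headers, the deposited tables hold coverage (a signal, in reads per base), FPKM and TPM per gene. Deposited FPKM is scaled to the aligned bases of a library. Deposited TPM is scaled to 1000000 over assembled loci, with reference genes on top. Gene models carry the CC-4532 version 6.1 suffix, and coordinates are those of the files.

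From these values, reads were estimated as coverage times span over 150 bases. Coverage ratios, CC5325 over CC125, were put on the TPM scale by each library's median TPM per unit of coverage (0.392 in CC5325 and 0.868 in CC125), with an exact Clopper-Pearson 95% interval conditional on summed reads. Ratios between genes have a conditional exact interval of the odds ratio. The fold rule was 2-fold on log2(TPM + 1), for genes averaging 1 TPM or more. Strain and library cannot be told apart. All 10 genes are named, with up to 4 most abundant genes of each pathway list, those whose interval leaves out equality, and at most 2 of each comparison list. The genes and lists were chosen with earlier results of these data known. Sequences of the genes were not used here. Software was scipy 1.17.1, pandas 2.3.3, numpy 2.4.6 and matplotlib 3.10.9 under Python 3.11.15.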

Additional observations from a re-analysis of the deposited data

Results flagged for a closer look

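Loci that the authors' run assembled from the reads, which the comparisons above do not use, lay over 8 of the 10 genes in CC5325 and over 8 in CC125. They were on the same strand, and the fewest reads, at most 3.52, were in the PRK1 locus of CC125. They draw on the same reads as the annotation rows. In both libraries 1 locus ran over RBCS1 and RBCS2 together, at 13.3 TPM in CC5325, against 10.02 TPM in CC125. The GAPA1 locus stood at 1.58 TPM in CC5325, against 3.73 TPM in CC125, and the CP12 locus, which spans the gene, at 0.945 TPM in CC5325, against 1.86 TPM in CC125. TRK1 was assembled over its whole span in CC5325, at 2.09 TPM, and as 2 pieces over 23.6% of it in CC125, at 1.98 and 1.36 TPM. FBA3 was whole in CC5325, at 3.35 TPM, and in 2 pieces in CC125, at 6.26 and 4.17 TPM. PGK1 had 2 pieces in CC5325, at 0.937 and 1.06 TPM, and 1 in CC125, at 1.51 TPM. RCA1 had 2 pieces in CC5325, at 0.632 and 0.906 TPM, and none in CC125. PRK1 had none in CC5325 and 1 in CC125, at 1.10 TPM, over 11.8% of the gene. A piece's TPM refers to its own length and is no level of the gene.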

How the results depend on the processing

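No paired analysis was possible because each strain has 1 library, and for the same reason no replicate could be left out. Under each scaling tried, GAPA1, PRK1, CP12, FBA3 and RBCS1 kept a log2 ratio below 0 and TRK1 one above 0. Over all settings RBCS2 (-0.58 to 0.42), PGK1 (-0.21 to 0.63), RCA1 and RPE1 changed sign. A pseudocount or a filter cannot change the sign of a gene's ratio, so only the scalings bear on it. TRK1 fell to 0.11 without the 20 most abundant genes and to 0.22 scaled to nuclear genes. Counting intervals were not computed on those scales, so whether TRK1 differs there is not known. GAPA1 ran from -1.70 to -0.50. The number of the 10 genes 2-fold lower was 0 with a pseudocount of 5 (7 of 175 reference genes), with FPKM (9 of 175) and with a minimum of 5 TPM (7 of 24). It was 3 without the 20 most abundant genes, where 44 of 175 were lower, against 18 as reported. The number 2-fold higher was 1 with a pseudocount of 0.1, where 76 of 175 were higher, against 61 as reported. With a minimum of 5 TPM only RBCS2 was left, and the median became 0.25. Intervals that leave out equality numbered 2 with 600 bases per unit, a setting chosen after seeing the data, as were the FPKM and median scales of the intervals. Against 175 genes, the median log2 ratio of all genes was 0.42 with FPKM, -0.22 without the 20 most abundant genes and -0.094 scaled to nuclear genes. The alternative with coding lengths was not run. With these reads, ratios of genes at the level of PGK1 or RCA1 are known only to within several fold.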
